A study of Mus musculus with 16 samples.

Results

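The 8 libraries described here are those whose titles say GFP-, out of 16 in the series, and they were chosen by title alone. They comprise 4 odor libraries and 4 vehicle libraries, and expression of 19505 named genes, 1091 of them odorant receptors, was compared between them. The odor libraries came from mice given bourgeonal, a synthetic aldehyde with a floral smell. The vehicle libraries came from mice given filtered air by the same schedule. All mice, in both treatments, were of the C57BL/6 strain, carried the S100a5-tauGFP reporter, were of both sexes and were 7 to 12 weeks old. Each mouse was housed alone in a clean air chamber for 40 hours, and pulses of 10 seconds every 20 minutes began after 26 hours. The olfactory mucosa was then dissociated and sorted by green fluorescence, and each library is a pool of cells from 3 mice, so differences between single animals were not measured. The labels do not say how many copies of the reporter the mice carried.

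The title of every library names one gate and its cell type field the other, so libraries are called by their titles. S100a5, the gene that drives the reporter, had a higher log2 value in the library titled GFP- than in the library titled GFP+ of the same treatment and number in 8 of 8 cases, by 0.65 to 1.46. The libraries titled GFP- were therefore the side with more S100a5 RNA. All values are the deposited log2 array values, on which a difference of 1 is a doubling of signal. The median of the 8 libraries over all probe sets lay between 5.40 and 5.59, and libraries of the same group correlated at 0.9896 to 0.9927. Arrays have no read depth, so the number of libraries limits the precision. As a guide to background, the 95th percentile of vomeronasal receptor values, 4.86, was used, because these receptors belong to another sensory organ. By that guide 11567 genes lay above background in at least 1 group.

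Olfactory sensory neurons each express 1 odorant receptor gene, so a change in a receptor's RNA in a sorted pool follows the number of neurons that chose it as well as the RNA in each of them. In a bulk library, fewer cells of a type and less RNA per cell cannot be told apart. Odor binding activates the olfactory G protein and adenylyl cyclase, and the cyclic nucleotide-gated channel then opens. Sustained activity raises a set of genes in these neurons, of which the calcium-binding protein S100a5 and the adhesion molecule Kirrel2 are the best known. Assays of this kind sort active neurons after an odor has been presented to a freely breathing mouse, and ask which receptors are enriched in them.

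The cells matched their label as olfactory sensory neurons. Omp, the olfactory marker protein of mature neurons, had a mean of 18.91 ± 0.06 in odor libraries and 18.82 ± 0.07 in vehicle libraries (SD, n = 4 each), near the top of the array scale, where the highest value per library was 19.38 to 19.56. All 10 mature neuron genes lay above the guide. Of the marker lists of other cells, 0 of 7 endothelial, 1 of 6 horizontal basal, 1 of 8 lymphocyte, 4 of 9 progenitor and cell cycle, 9 of 18 myeloid, 6 of 12 microvillar and 8 of 12 sustentacular genes lay above the guide. The basal keratins Krt5 and Krt14 and the proliferation gene Mki67 lay below it in both groups, while Pcna, a replication clamp, was at 13.61 in odor and 13.53 in vehicle libraries. Supporting cell genes were present, with Cyp2g1 at 12.57 to 14.19 in odor and 11.63 to 13.54 in vehicle libraries.

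Olfr16 and Olfr1220 were the receptors around which the comparison turned, and the sequence around the start of each is shown so that the regions can be compared. The windows run from 250 bases before to 50 bases after the annotated start and come from RefSeq (GRCm38.p6). Olfr16 lies on the plus strand at chr1:172956518-172956817 and Olfr1220 on the minus strand at chr2:89097914-89098213, each printed 5′ to 3′ along its own strand. Capitals mark the letters TAATNA on either strand, the core that homeodomain factors such as Lhx2 recognise.
Olfr16: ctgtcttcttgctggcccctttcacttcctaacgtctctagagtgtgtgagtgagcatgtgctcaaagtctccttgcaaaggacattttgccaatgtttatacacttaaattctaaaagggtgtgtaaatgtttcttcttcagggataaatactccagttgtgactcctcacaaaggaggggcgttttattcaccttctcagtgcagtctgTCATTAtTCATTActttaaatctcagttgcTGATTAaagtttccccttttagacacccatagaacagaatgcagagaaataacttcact
Olfr1220: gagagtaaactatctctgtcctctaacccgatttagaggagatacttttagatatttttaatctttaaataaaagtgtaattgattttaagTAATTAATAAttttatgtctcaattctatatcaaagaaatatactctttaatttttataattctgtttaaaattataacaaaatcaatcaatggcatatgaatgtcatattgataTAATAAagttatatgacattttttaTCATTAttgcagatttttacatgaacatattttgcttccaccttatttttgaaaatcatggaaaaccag
Olfr16 held 3 matches and Olfr1220 held 4, some of them adjoining or overlapping. The letters occurred in 65.8% of 944 receptor windows of the same length and in 26.8% of 27025 windows of all genes. CCCNNGGG, the core letters of the Olf/Ebf site, was searched on both strands too and occurred in neither window, against 3.1% of receptor windows and 13.4% of all windows. A match is a description of the letters, and whether the annotated start is the one used in these neurons is not given in the sources used here.

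No gene passed the test between odor and vehicle. Of 19505 genes, 0 (0%) had an adjusted p under 0.05 in limma, and the smallest adjusted p was 0.816. At an unadjusted p under 0.05, 457 genes (2.34%) were higher in odor and 412 (2.11%) were lower. In 304 genes (1.56%) all 4 odor libraries lay above all 4 vehicle libraries, and in 244 (1.25%) they all lay below. On simulated data with the same number of genes and libraries, a log2 change of 1 was called in 56.7% of 67 genes. A change of 2 was called in 95.5% of 67 and a change of 4 in 100% of 66. These genes were drawn at random from all genes, were changed together and had independent noise. The shares do not carry over to receptors, whose median within-group SD was 0.49 against 0.28 over all genes, or to a single changed gene. The p-values measure the spread between pools.

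**Figure D1:**
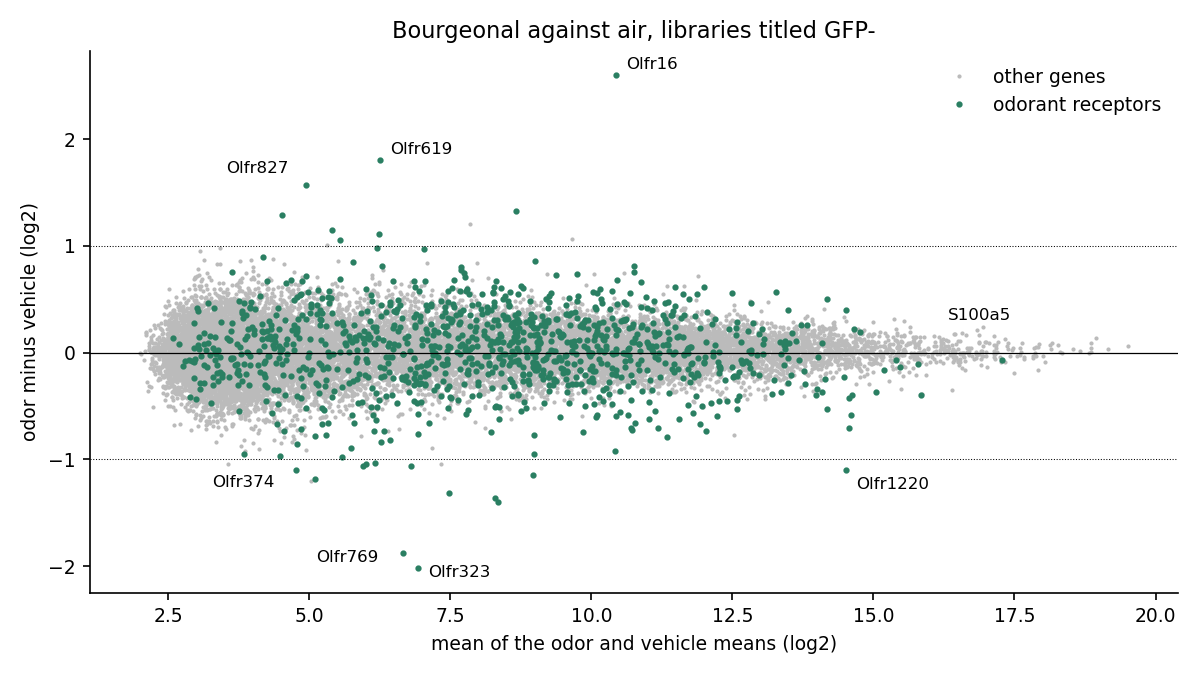
Odor minus vehicle in the libraries titled GFP- (log2) against the mean level (log2) for all 19505 genes, with odorant receptors and other genes drawn in separate colours. Olfr16 lies farthest above 0, at 2.60, and most of the genes beyond 1 in either direction are odorant receptors.

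The largest differences nevertheless belonged to odorant receptors. The group means differed by more than 1 in 27 genes (0.138%), and 21 of these were odorant receptors, which is 1.92% of the receptors against 0.0326% of the other genes. Of the 21, 8 were higher and 13 lower in odor, and in 10 of them the libraries of the groups did not overlap. Receptors also varied more between libraries of one group. Among the 936 receptors above the guide the median within-group SD was 0.504, with quartiles of 0.376 and 0.658. Among the 10631 other genes above the guide it was 0.238, with quartiles of 0.174 and 0.320. Counted by the test instead of by size, 41 receptors (3.76%) were higher and 41 (3.76%) lower at an unadjusted p under 0.05. Over all genes these shares were 2.34% and 2.11%. Receptors whose libraries did not overlap numbered 14 higher and 17 lower, or 1.28% and 1.56%, close to the shares over all genes. The median difference over all 1091 receptors was 0.03, against 0.01 over all genes.

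Olfr16, also called MOR23, is known as a receptor for lyral, another odorant of the lily of the valley type. In the odor libraries its log2 values were 11.44, 12.06, 11.86 and 11.55 in replicates 1 to 4. In the vehicle libraries they were 8.94, 10.34, 10.12 and 7.11. All 4 odor values lay above all 4 vehicle values, and the vehicle values were spread widely while the odor values were close together. The means were 11.73 ± 0.28 and 9.13 ± 1.48 (SD, n = 4 each), a difference of 2.60, or 6.05-fold in signal. The limma fit, which draws each gene's variance toward that of all genes, gave an SE of 0.57 and a 95% interval of 1.34 to 3.85. With an intensity trend and robust variances in that fit, the SE was 0.72 and the interval 0.88 to 4.31. The difference was the largest of any gene, but it did not pass (limma adjusted p = 0.996). Vehicle replicate 4 held the lowest value, and without it the difference was 1.92. Of the 936 receptors above the guide, 12, with Olfr16 itself counted, had a vehicle SD at least as large as that of Olfr16.

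**Figure D2:**
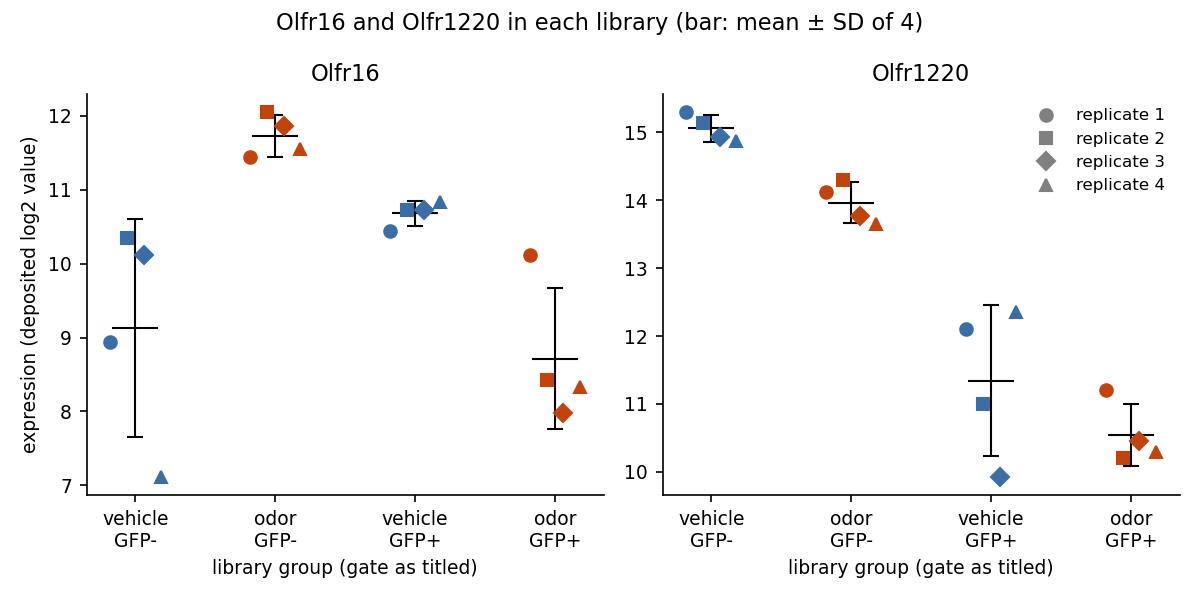
Log2 values of Olfr16 and Olfr1220 in each of the 16 libraries, by treatment and titled gate, with points shaped by replicate number and bars for the mean ± SD of 4 libraries. In the libraries titled GFP- the Olfr16 values were 11.44 to 12.06 with odor and 7.11 to 10.34 with vehicle, while those of Olfr1220 were 13.66 to 14.30 with odor and 14.87 to 15.30 with vehicle.

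In the other gate Olfr16 lay the opposite way. The libraries titled GFP+ had values of 10.11, 8.43, 7.98 and 8.33 with odor and 10.44, 10.73, 10.72 and 10.84 with vehicle. Here every odor value was below every vehicle value, a difference of -1.97 with an interval of -2.79 to -1.15 (limma adjusted p = 0.849). The odor effect in libraries titled GFP- minus that in libraries titled GFP+ was 4.57, with an interval of 2.90 to 6.23. Over all genes 0 (0%) passed for this difference between gates (smallest limma adjusted p 0.172), although 1109 genes had an unadjusted p under 0.05. Olfr16 had an adjusted p of 0.467 in that limma fit.

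Olfr1220, a receptor of a chromosome 2 cluster for which no ligand is stated here, was the other marker. Its odor values were 14.12, 14.30, 13.76 and 13.66. Its vehicle values were 15.30, 15.14, 14.93 and 14.87. All odor values lay below all vehicle values, and both groups were tight. The difference was -1.10 ± 0.18 (SE), with an interval of -1.51 to -0.70, or 2.15-fold lower signal in odor, and it did not pass (limma adjusted p = 0.816). It passed only where eBayes was run with an intensity trend and robust variance (adjusted p = 0.0371), and over all 17 alternatives its adjusted p ran from 0.0371 to 1.000. In the libraries titled GFP+ its values were 11.20, 10.20, 10.45 and 10.29 with odor and 12.10, 10.99, 9.92 and 12.35 with vehicle. Those groups overlapped, with a difference of -0.81 (interval -1.80 to 0.19). The odor effect differed between the gates by -0.30, with an interval of -1.37 to 0.78 (limma adjusted p = 0.957).

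The receptors next to both markers in gene order were then read. On the side of Olfr16, Olfr1408 (173.4 kb away) differed by -0.25 and Olfr1406 (226.7 kb) by -0.24. Around Olfr1220, Olfr1218 (42.4 kb) differed by 0.36, Olfr1219 (22.8 kb) by 0.22 and Olfr1222 (27.9 kb) by 0.22. Olfr1221 (14.6 kb), the nearest, had odor values of 5.31, 6.70, 6.14 and 4.40 and vehicle values of 6.19, 7.00, 7.72 and 5.78. Its groups overlapped, and its difference was -1.04 (limma adjusted p = 0.996). Olfr1221 had a difference of -0.69 in the libraries titled GFP+. None of these 6 neighbours passed.

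Olfr374, Olfr1099 and Olfr1040 had been singled out by earlier results on these data. Olfr374 had odor values of 4.20, 4.42, 4.16 and 4.03 and vehicle values of 5.43, 5.25, 4.91 and 5.63. Its groups did not overlap, with a difference of -1.10 ± 0.18 (SE, limma adjusted p = 0.816). Every odor value lay below the guide of 4.86, so the size of that difference is uncertain. Olfr1099, with means of 12.86 and 13.07, differed by -0.21 in the libraries titled GFP- and by -2.55 in those titled GFP+, where it passed (limma adjusted p = 0.0345). Olfr1040 had means of 2.97 and 2.92 in the libraries titled GFP-, both below the guide, so no difference can be read from it there. In the libraries titled GFP+ Olfr1040 passed too (limma adjusted p = 0.0483), with a difference of -1.41. Its means there, 2.79 with odor and 4.20 with vehicle, were also under 4.86.

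The receptors with the smallest p-values among those higher in odor were 10, all above the guide in at least 1 group, with differences of 0.68 to 2.60. Of these, 8 had groups that did not overlap, which picking by p favours, against 1.28% of all receptors and 1.56% of all genes with odor above. A vehicle mean below the guide was found in 4. Besides Olfr16, Olfr619 had odor values of 7.42, 7.21, 6.76 and 7.18 against vehicle values of 5.51, 5.41, 6.20 and 4.25, a difference of 1.80 ± 0.34 (SE). Olfr827 had odor values of 5.33, 6.07, 5.76 and 5.70 against 4.63, 3.84, 4.71 and 3.41, a difference of 1.57 to a vehicle mean below the guide. Both had all odor values above all vehicle values, and neither passed (limma adjusted p = 0.816). Olfr860 differed by 0.85 between levels well above background, 9.42 and 8.56. Olfr1246 differed by 0.75 (11.12 and 10.37), Olfr1341 by 0.80 (8.08 and 7.28) and Olfr894 by 1.11 (6.78 and 5.67). Olfr1095 (1.15) and Olfr266 (1.29) overlapped between the groups, and Olfr885 (0.68) did not.

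The 10 receptors lower in odor with the smallest p-values differed by -0.55 to -1.88. In 9 of them the groups did not overlap, again favoured by picking by p, against 1.56% of all receptors and 1.25% of all genes with odor below. In 2 the odor mean lay below the guide. The largest was Olfr769, with odor values of 5.03, 5.82, 6.24 and 5.80 against vehicle values of 6.47, 7.80, 7.30 and 8.84 and a difference of -1.88 ± 0.43 (SE). Olfr31 had odor values of 7.75, 8.29, 6.90 and 7.50 against 9.63, 9.15, 8.69 and 8.40, a difference of -1.36. In both, every odor value was below every vehicle value. Olfr971 and Olfr444 each differed by -1.06, and Olfr66 differed by -0.82. Olfr740 and Olfr1294 stood at high levels and differed less, by -0.66 (10.45 and 11.10) and by -0.55 (10.85 and 11.40). Olfr1313 differed by -0.78 with an odor mean of 4.71, below the guide. None of the 20 receptors passed, with limma adjusted p-values of 0.816 to 0.996.

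**Figure D3:**
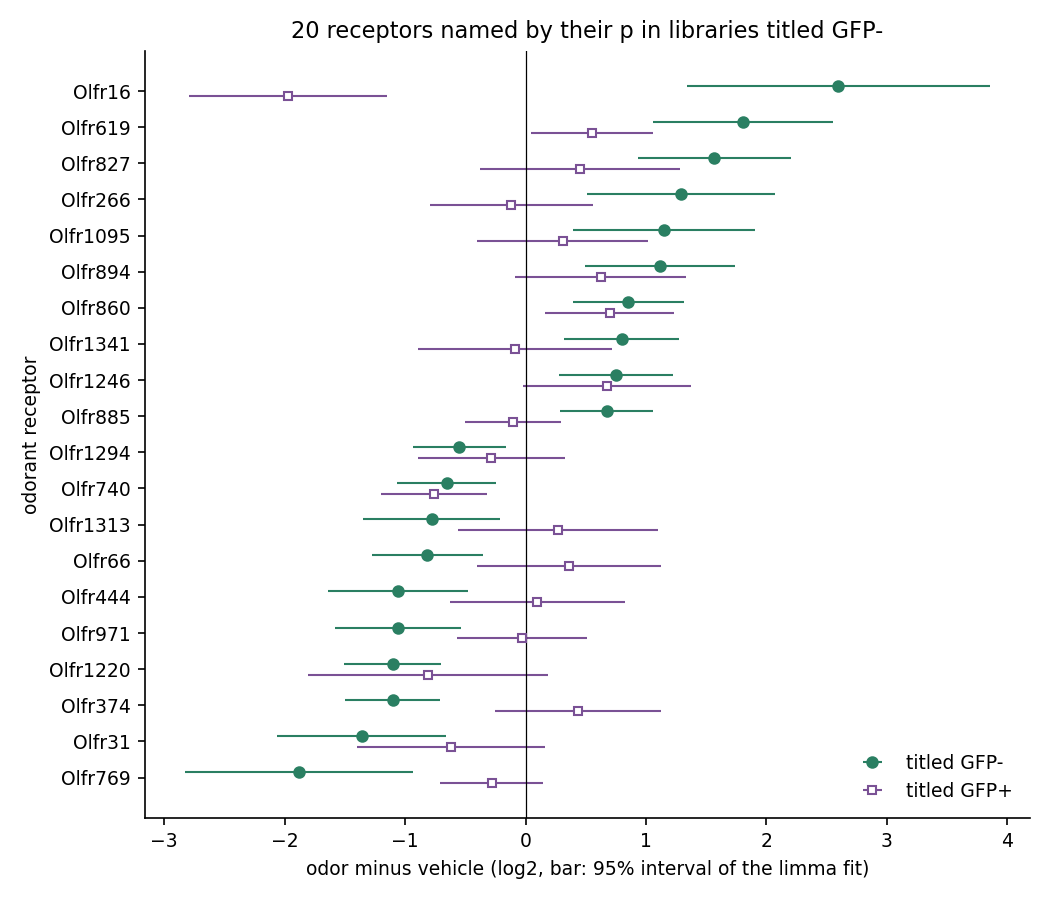
Odor minus vehicle (log2) for the 20 named receptors in the libraries titled GFP- and in those titled GFP+, with 95% intervals from a limma fit of each gate's 8 libraries. Olfr16 stands at 2.60 in one gate and at -1.97 in the other, while Olfr860 (0.85 and 0.70) and Olfr740 (-0.66 and -0.76) lie close together in both gates.

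The libraries titled GFP+ gave the same receptors mixed values. Olfr860 differed by 0.70 there, Olfr1246 by 0.68, Olfr894 by 0.63, Olfr619 by 0.55 and Olfr827 by 0.45. Olfr885, Olfr1341 and Olfr266 lay between -0.12 and -0.09. Among the lower receptors Olfr740 differed by -0.76 and Olfr31 by -0.62 in that gate, whereas Olfr971 was at -0.03, Olfr444 at 0.10 and Olfr66 at 0.36. Of the 10 higher receptors, 7 had an unadjusted p under 0.05 for the difference between gates, and so did 7 of the 10 lower ones, but the receptors had been picked by their p in one of these gates and none passed after adjustment.

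Other receptors with large mean differences had groups that overlapped. These were picked after their values were seen. Olfr323 had odor values of 10.01, 4.73, 4.10 and 4.82 and vehicle values of 8.62, 9.16, 9.94 and 4.01, with 1 high odor library and 1 low vehicle library. Its difference of -2.02 had an interval of -5.15 to 1.11, and it was -3.38 without odor replicate 1 and -3.33 without vehicle replicate 4. Olfr1022 had odor values of 7.85, 8.86, 7.31 and 3.24 and vehicle values of 7.98, 8.62, 8.88 and 7.01, with a difference of -1.31 that was -0.12 without odor replicate 4. Olfr930 differed by 1.32 (0.78 without vehicle replicate 4). Olfr250 differed by -1.40 and Olfr921 by -1.14, and with single libraries left out they ran from -1.85 to -1.01 and from -1.51 to -0.81.

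Trace amine receptors are the other family of olfactory receptors. Of 15 measured, 13 lay above the guide, 9 were higher and 6 lower in odor, and the median difference was 0.04. They ran from -0.54 for Taar5 to 0.51 for Taar8c, and 0 passed.

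Outside the receptors, the 8 genes with the smallest p-values among those higher in odor differed by 0.51 to 0.85. All had groups that did not overlap, which picking by p favours, against 304 (1.56%) of all genes. Krit1, a scaffold protein of cell junctions, had odor values of 9.55, 9.80, 9.74 and 9.91 against vehicle values of 9.17, 9.37, 9.27 and 9.15. B4galt1, a Golgi galactosyltransferase, had 12.07, 12.05, 12.01 and 11.65 against 11.07, 11.43, 11.35 and 11.44, a difference of 0.63. Srgn, the proteoglycan core protein serglycin, had 7.88, 7.90, 7.86 and 7.67 against 7.49, 7.14, 7.32 and 7.28, a difference of 0.52. These differences were 0.39, 0.45 and 0.54 in the libraries titled GFP+. Frrs1 (0.85), Tagln3 (0.65), Wfdc18 (0.55) and Lnx2 (0.55) had levels of 5.08 to 5.93, close to the guide, and Prkd3 (0.83) had a vehicle mean below it. All 8 had a limma adjusted p of 0.996.

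Of the 8 other genes lower in odor, also picked by their p, 7 had odor means below the guide, so the size of their differences is uncertain. These were F2rl3 (-0.83), Zgrf1 (-1.20), Slc16a1 (-0.63), Chtf18 (-0.91), Serpinb8 (-0.73), Guca2a (-0.70) and Klhl6 (-0.79). The exception was Fbxl12, an F-box protein, with odor values of 5.75, 5.71, 5.58 and 5.90 against 6.34, 6.26, 6.38 and 6.15, a difference of -0.55. The limma adjusted p-values of these 8 genes were 0.816 to 0.996, and none passed.

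Genes of neuronal activity were read next, because the libraries are the side with more S100a5. S100a5 itself had odor values of 16.14, 16.24, 16.51 and 16.07 and vehicle values of 15.69, 16.17, 16.63 and 15.89. The groups overlapped, with means of 16.24 ± 0.19 and 16.10 ± 0.41 (SD, n = 4 each), a difference of 0.15 with an interval of -0.32 to 0.61 (exact two-sided permutation test, p = 0.571, where 70 assignments give a smallest p of 0.0286). Of 8 measured activity-linked genes 7 were higher in odor, with a median of 0.22 against 0.01 over all genes, and 0 passed. Kirrel2, which sorts axons by activity, differed by 0.31, Lrrc3b by 0.41 and Sema7a, a semaphorin, by 0.19. Pcdh10, a protocadherin, had odor values of 9.02, 9.55, 10.11 and 9.65 against 8.54, 8.51, 9.61 and 8.71, overlapping groups with a difference of 0.74. The list's median was 0.04 without odor replicate 3, 0.47 without vehicle replicate 3 and 0.12 without vehicle replicate 1.

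**Figure D4:**
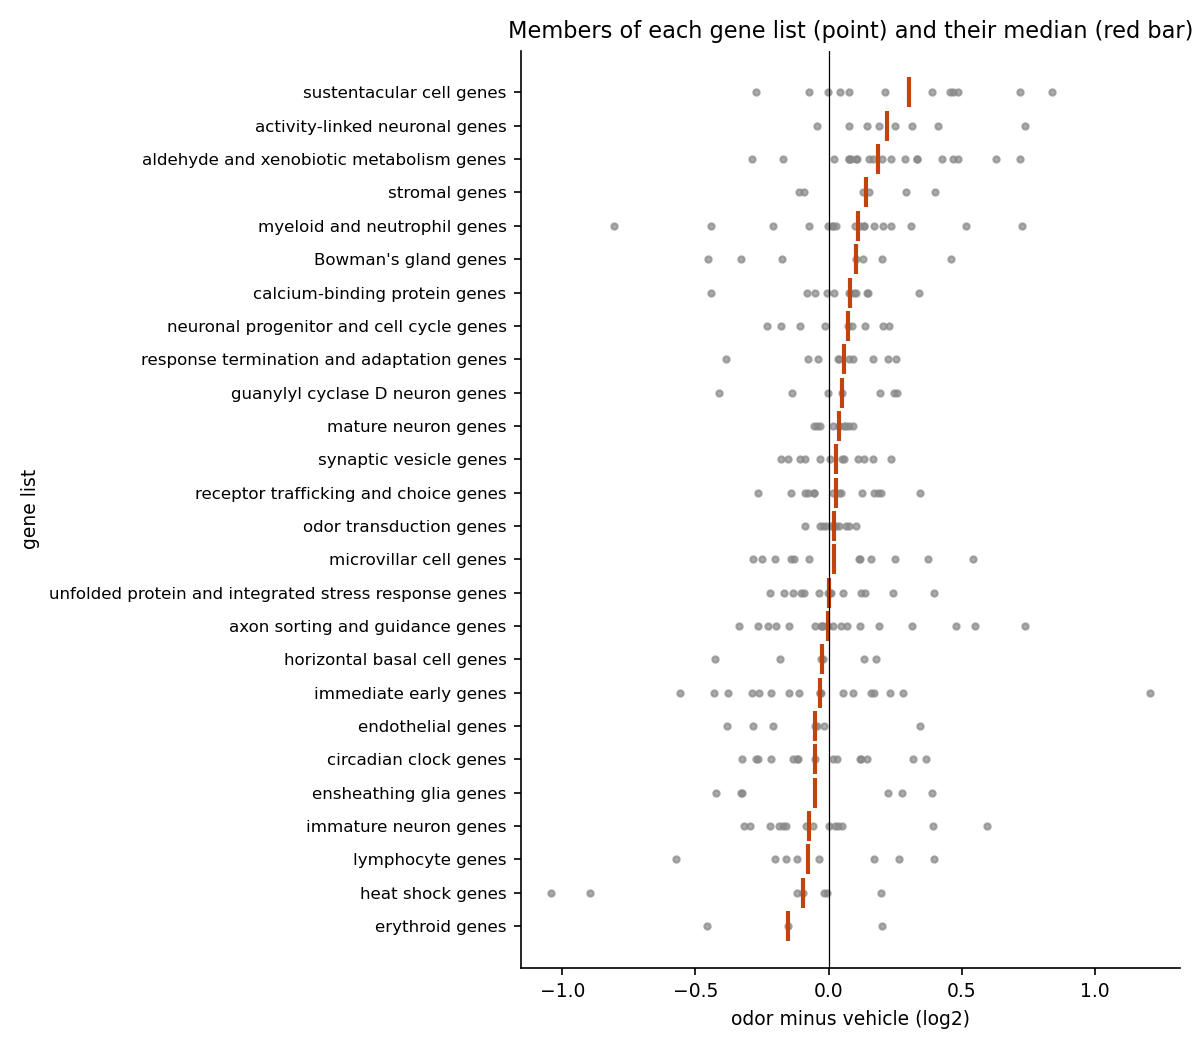
Odor minus vehicle (log2) in the libraries titled GFP- for the members of each gene list, with points for genes and a bar for the list's median. The sustentacular cell genes have the highest median, 0.30, and the single heat shock genes far below 0 are Hspa1a and Hspa1b.

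Immediate early genes respond within minutes to activity or to handling of cells, and 0 passed. Of 18 measured, 7 were higher and 11 lower in odor, with a median of -0.03. Among the 13 above the guide 3 were higher and 10 lower, with a median of -0.11, and 10 of 18 were higher without vehicle replicate 4, with a median of 0.06. Fos differed by -0.03, Egr1 by -0.43, Jun by -0.29 and Btg2 by -0.56, the last with values of 5.57 to 6.06 in odor and 5.75 to 6.76 in vehicle. Nr4a1, an orphan nuclear receptor, had odor values of 8.05, 8.18, 9.73 and 7.85 and vehicle values of 6.35, 6.91, 9.18 and 6.56, a difference of 1.20 (limma adjusted p = 0.996). Replicate 3 was the highest in both treatments, and it made the groups overlap.

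Transduction genes differed little between the treatments. The 11 transduction genes lay between -0.09 (Ric8b, which helps assemble the olfactory G protein) and 0.10 (Slc12a2, the chloride importer). Gnal, the olfactory G protein subunit, Adcy3, the cyclase, and Cnga2, a channel subunit, differed by 0.02, -0.02 and 0.04. Among 10 genes of response termination the median was 0.06, with the phosphodiesterases Pde1c at 0.08 and Pde4a at -0.38. The 14 genes of receptor trafficking and choice had a median of 0.03. Rtp1 and Rtp2, which carry receptors to the membrane, differed by 0.02 and 0.13, Lhx2 by 0.17, Tshz1 by -0.26 and Lbr, a nuclear envelope protein, by 0.34. The 12 synaptic vesicle genes had a median of 0.03, and 0 members of any of these lists passed.

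Axon sorting and guidance genes split evenly, with 9 of 19 higher and a median of -0.00. Kirrel3, the adhesion molecule of less active neurons, differed by -0.00, Epha7 by 0.48 and Plxna3 by -0.34. Of 10 mature neuron genes 7 were higher, with a median of 0.04. Of 14 immature neuron genes 6 were higher, with a median of -0.07, Gap43 of the growth cone at 0.39 and Dpysl3, a cytoskeletal protein, at 0.59. The 9 progenitor and cell cycle genes had a median of 0.07.

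Supporting cell genes came next, those of the sustentacular cells that surround the neurons and detoxify inhaled compounds. Of 12 sustentacular cell genes 9 were higher, with a median of 0.30, and 0 passed. The mean level of the list ran from 7.24 to 7.90 in odor and from 6.84 to 7.49 in vehicle libraries. Sult1c1, a sulfotransferase, had odor values of 7.64, 7.44, 7.15 and 7.76 and vehicle values of 6.39, 7.20, 5.90 and 7.14, a difference of 0.84. The cytochromes Cyp2a5 and Cyp2g1 differed by 0.72 and 0.48, and Cyp2g1 was highest in odor replicate 4, at 14.19 against 12.57 to 12.74 in the other odor libraries. Without odor replicate 4 the list's median was 0.09, without vehicle replicate 2 it was 0.17, and over the 8 members above the guide, all of them higher, it was 0.46. Enzymes that handle aldehydes and other foreign compounds were higher in 18 of 20 cases, with a median of 0.18 (0.16 to 0.22 over all alternatives), Aldh2 at 0.42, Gstm1 at 0.33 and Cyp2f2 at 0.63. Cyp2g1, Cyp2a5 and Cbr2 stand in both lists, and the part of supporting cell RNA in the enzyme values was not tested.

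Other cell types gave small medians. Of 18 myeloid genes 13 were higher, with a median of 0.11, mean levels of 4.44 to 4.999 in odor and 4.13 to 4.90 in vehicle libraries, and members on both sides such as Lyz2 (0.72) and the leukocyte phosphatase Ptprc (-0.81). The medians were 0.02 for 12 microvillar, -0.03 for 6 horizontal basal, 0.10 for 7 gland, -0.08 for 8 lymphocyte, -0.15 for 3 erythroid, -0.05 for 7 endothelial, 0.14 for 6 stromal and -0.05 for 6 glial genes. The 7 genes of guanylyl cyclase D neurons, a separate sensory class, had a median of 0.05, and the 12 calcium-binding protein genes a median of 0.08. None passed.

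The stress genes Hspa1a and Hspa1b stood apart in vehicle replicate 3 of both titled gates. The 14 genes of the unfolded protein and integrated stress responses had a median of 0.00, with 7 higher and 7 lower, from -0.22 to 0.40. In 2 of them (14.3%) all odor libraries lay above all vehicle libraries, against 1.56% of all genes, and 0 passed. Xbp1, a transcription factor of secretory stress, had odor values of 11.76, 11.71, 11.84 and 11.85 above all vehicle values of 11.54, 11.38, 11.31 and 11.35, with a difference of 0.40, and Hspa5, a chaperone, differed by 0.24. Of 7 heat shock genes 6 were lower, with a median of -0.10, but without vehicle replicate 3 all 7 were higher, with a median of 0.06. Hspa1a was 10.99 in vehicle replicate 3 and 6.35 to 7.08 in the other vehicle libraries, and Hspa1b was 10.77 there and 6.30 to 6.86 elsewhere, which set their differences of -1.04 and -0.90. In the libraries titled GFP+, vehicle replicate 3 was high as well, at 12.80 for Hspa1a and 12.41 for Hspa1b. The other vehicle libraries of that gate lay at 7.46 to 8.44 and at 7.54 to 7.95.

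The 8 libraries also varied by replicate number. What libraries of one number have in common is not stated in the labels. The mean of the 3 measured Y-linked genes was 7.40, 9.40, 9.43 and 2.97 in odor replicates 1 to 4 and 7.24, 9.13, 9.35 and 3.45 in vehicle replicates, so replicate 4 of both treatments lay below the guide. Principal component 1, with 21.5% of the variance, set replicates 2 and 3 of both treatments apart from replicates 1 and 4, and component 2 carried 17.2%. Olfr16 had its lowest vehicle value in replicate 4, and with the Y-linked mean as a covariate its difference was 2.59 (limma adjusted p = 0.610).

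Circadian clock genes divided the replicates in the same way. The mean level of 15 clock genes was 8.79, 7.87, 7.89 and 8.95 in odor replicates 1 to 4 and 8.83, 8.13, 7.94 and 8.70 in vehicle replicates, with a median difference between treatments of -0.05. Per1, a core clock repressor, was 11.17, 9.52, 9.33 and 11.65 in odor and 11.47, 9.97, 9.25 and 11.43 in vehicle libraries. Replicates 1 and 4 were the higher ones in both treatments. The mean level of the 8 activity-linked genes followed another pattern, with replicate 3 highest in both treatments. It was 13.45 in odor replicate 3 against 12.66 to 12.78 in the other odor libraries. In vehicle replicate 3 it was 13.20, against 12.34 to 12.52 in the other vehicle libraries. Kirrel2 was 15.11, 15.25, 16.76 and 14.96 in odor and 14.60, 14.98, 16.11 and 15.15 in vehicle libraries. Lrrc3b was 14.10, 14.59, 15.51 and 13.11 in odor and 13.70, 13.94, 14.58 and 13.44 in vehicle libraries. Kcng1, a potassium channel subunit picked after its values were seen, was 10.01, 10.19, 11.67 and 8.84 in odor and 8.69, 9.12, 10.32 and 8.34 in vehicle libraries. Immediate early genes did not share this pattern as a list, since their mean level was not highest in replicate 3 of either treatment. Nr4a1 was highest in replicate 3 of both treatments, but Egr1 was lowest there in both. Fos was highest in odor replicate 3 and lowest in vehicle replicate 3, and Fosb was also lowest in vehicle replicate 3.

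**Figure D5:**
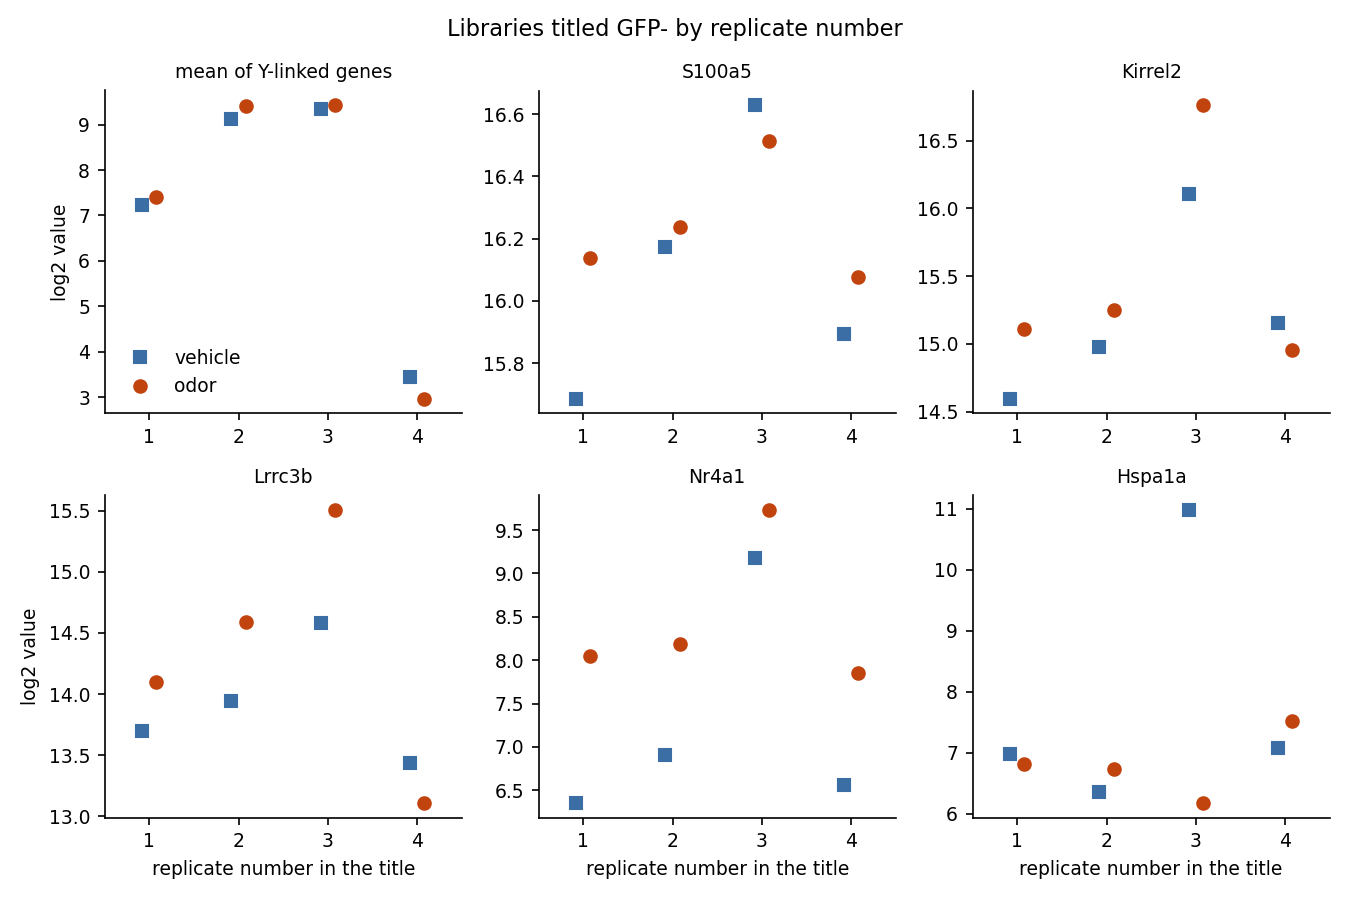
Log2 values by replicate number, for odor and vehicle libraries titled GFP-, of the Y-linked mean, S100a5, Kirrel2, Lrrc3b, Nr4a1 and the heat shock gene Hspa1a, each on its own axis. The Y-linked mean is 2.97 and 3.45 in replicate 4, and Kirrel2 is highest in replicate 3 of both treatments, at 16.76 and 16.11.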

How the data were processed

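Sorted olfactory mucosa cells were measured on Clariom S arrays. The authors deposited log2 expression values, and the submitters' processing notes name Affymetrix Expression Console. Its version, its summarisation method and the genome build were not given in the sources used here. No further normalization was applied, and 0 columns lacked a sample.

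The table held 28846 probe sets. Left out were 94 controls (spike-in or background) and 6546 whose ID contains neg or pos. Of the rest 19572 named 1 gene, 0 several and 2634 none. Where a gene had more than 1 probe set, that with the highest mean was kept, which set 67 aside and left 19505 genes. All 19505 Entrez IDs matched the RefSeq gene table (GRCm38.p6), used for gene order and distances. Binding of receptor probes to near-identical family members was not tested.

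Odor and vehicle were compared in the 8 libraries with limma 3.58.1 under R 4.3.3 (functions lmFit and eBayes, two-sided, Benjamini-Hochberg over all genes, threshold 0.05). The difference between gates was fitted on all 16 libraries with each pool as a fixed term, since gates of 1 number were taken to come from the same mice. A consensus correlation between the gates of a pool (0.19) was used only in the alternative that compared odor and vehicle with all 16 libraries in 1 fit. Each SE and interval of a difference is that of the limma fit, whose variances are drawn toward those of all genes. S100a5 was tested by exact permutation. The fits were tested on simulated data.

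The members and gene lists were chosen with earlier results of these data known. The naming rule took both markers, Olfr374, Olfr1099 and Olfr1040, the 10 receptors and 8 other genes with the smallest p each way above the background guide (no Gm, Rik or LOC models), the first 4 or fewer measured members of each list, S100a5, Omp, Kirrel2, Kirrel3, Fos and Egr1, and up to 2 receptor neighbours on each side. The rule's receptors most like Olfr16 by protein were not analysed here. List members beyond the rule were named after their values were seen. A list's level in a library is the mean of its members' log2 values. Alternatives were the replicate number as a block, each library left out, median centring, quantile normalization, dim genes left out, mean of probe sets, all 16 libraries, a Y-linked covariate, trend and robust variances and array weights.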

Additional observations from a re-analysis of the deposited data

Results flagged for a closer look

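In 27 of 316 groups of 4 libraries, 1 library lay far from the other 3 by Dixon's test at the 95% level, which chance gives in about 1 group in 20. All values are log2 values of libraries titled GFP-.

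Receptors that stood apart in 1 library were the following. Olfr1040 was 2.58 in vehicle replicate 2 and 2.99 to 3.06 in the other vehicle libraries. Olfr1246 was 9.96 in vehicle replicate 4 and 10.46 to 10.54 in the other vehicle libraries. Olfr66 was 7.46 in vehicle replicate 1 and 6.60 to 6.64 in the other vehicle libraries. Olfr323 was 10.01 in odor replicate 1 and 4.10 to 4.82 in the other odor libraries. Olfr930 was 6.36 in vehicle replicate 4 and 8.39 to 8.66 in the other vehicle libraries. Olfr1408 was 8.86 in vehicle replicate 4 and 9.91 to 10.00 in the other vehicle libraries.

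Neuronal genes with a library apart gave these values. Kirrel2 was 16.76 in odor replicate 3 and 14.96 to 15.25 in the other odor libraries. Fosb was 7.54 in vehicle replicate 3 and 8.92 to 9.11 in the other vehicle libraries. Rtp2 was 14.73 in odor replicate 4 and 14.85 to 14.87 in the other odor libraries. Reep6 was 10.70 in odor replicate 3 and 11.16 to 11.25 in the other odor libraries. Stoml3 was 19.53 in odor replicate 2 and 19.56 to 19.56 in the other odor libraries. Gap43 was 6.22 in odor replicate 2 and 6.80 to 6.91 in the other odor libraries. Neurog1 was 3.64 in vehicle replicate 4 and 2.93 to 2.95 in the other vehicle libraries.

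Supporting cell, other epithelial and gland genes followed. Cyp2g1 was 14.19 in odor replicate 4 and 12.57 to 12.74 in the other odor libraries. Cyp2f2 was 11.29 in odor replicate 4 and 9.81 to 9.93 in the other odor libraries. Aldh3a2 was 12.22 in odor replicate 4 and 12.09 to 12.10 in the other odor libraries. Pou2f3 was 6.00 in odor replicate 3 and 4.52 to 4.77 in the other odor libraries. Trp63 was 4.49 in odor replicate 4 and 3.14 to 3.34 in the other odor libraries. Obp1a was 2.75 in odor replicate 1 and 3.28 to 3.36 in the other odor libraries.

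Heat shock, immune, glial and other genes gave the rest. Hspa1a was 10.99 in vehicle replicate 3 and 6.35 to 7.08 in the other vehicle libraries. Hspa1b was 10.77 in vehicle replicate 3 and 6.30 to 6.86 in the other vehicle libraries. C1qa was 4.46 in odor replicate 2 and 5.45 to 5.53 in the other odor libraries. Cd8a was 4.53 in vehicle replicate 3 and 4.34 to 4.37 in the other vehicle libraries. S100b was 4.19 in odor replicate 1 and 4.95 to 5.02 in the other odor libraries. B4galt1 was 11.65 in odor replicate 4 and 12.01 to 12.07 in the other odor libraries. Srgn was 7.67 in odor replicate 4 and 7.86 to 7.90 in the other odor libraries. Chtf18 was 4.75 in vehicle replicate 2 and 5.54 to 5.65 in the other vehicle libraries.

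Odor replicate 4 was the high library for Cyp2g1, Cyp2f2 and Aldh3a2, and vehicle replicate 3 the high one for Hspa1a and Hspa1b.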

How the results depend on the processing

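The count of genes past the threshold was 0 under 16 of the 17 alternatives, with a smallest adjusted p of 0.356 among them (limma, dim genes left out), and 539 to 1068 genes below an unadjusted 0.05. With trend and robust variances in eBayes 1 gene passed, Olfr1220 (limma adjusted p = 0.0371), and 795 genes fell below an unadjusted 0.05. The cause was not tested. Leaving out each library in turn gave 0 genes throughout. With the replicate number as a block 0 genes passed (smallest adjusted p = 0.626, and 1068 genes below an unadjusted 0.05). After group means were removed, the odor and the vehicle library of numbers 1 to 4 correlated at 0.14, 0.09, 0.11 and 0.16, and each library correlated best with its own number, which is a hint from the data and not from the design. For odor replicate 2 the margin was small, at 0.09 with vehicle replicate 2 and 0.08 with vehicle replicate 3. The labels do not say what a number stands for, so the main fit did not pair the libraries by number. The difference between gates gave 0 genes under all 12 alternatives, with a smallest adjusted p of 0.0532 with the pool and the replicate block together. The S100a5 difference ran from 0.01 to 0.32 with single libraries left out. Of 158 named genes, 46 changed direction under at least 1 alternative, in 116 of 2653 values. Many of the 2653 values could not turn. The replicate block, all 16 libraries, trend and robust variances and dim genes left out keep a gene's difference as it was. So does the mean of probe sets for a gene with 1 probe set. Olfr16 kept its direction, between 1.92 and 3.00, and its adjusted p ran from 0.558 to 1.000. Of 27 list medians, recomputed after their values were seen, 21 changed sign under an alternative, and 6 did not: activity-linked, aldehyde and xenobiotic metabolism, endothelial, mature neuron, response termination and sustentacular cell genes. Values below the guide of 4.86 carry a limit of their own, since signal near background compresses differences.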
